A study of Mus musculus with 147 samples.

Results

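PND8 germ cells were 336 testicular cells of wild-type mice at postnatal day 8 (PND8) that carried transcripts of *Ddx4*, the gene of a germ cell RNA helicase, and few or none of *Sox9* and *Nr2f2*, genes of Sertoli cells and of interstitial cells. They were taken from a series of 13032 single cells of the mouse male germline, of which 11598 were wild-type and passed the quality filter. A cell was kept with more than 2000 detected genes and 10000 to 1000000 transcripts, counted by unique molecular identifiers (UMIs). Its UMIs of a gene per 1000000 UMIs of the cell (CPM) had to be at least 150 for *Ddx4* and under 100 for *Sox9* and for *Nr2f2*. The series followed germ cells from the early embryo to the adult testis by a modified STRT-seq protocol, in which cells are picked and barcoded singly. The mice were offspring of C57BL/6 females and BVSC males, which carry the Blimp1-mVenus and Stella-ECFP reporters, so the 3 ages compared here shared strain and transgenes and differed in postnatal age. The cell names also mark PND7 cells as 2N and give no such mark for PND8 and PND10, a difference that cannot be told apart from age. For each replicate of PND7, PND8 or PND10 the paper counts 1 under embryos or male gonads used, and it calls the replicates biologically independent. Each replicate is therefore called a mouse here. Cells with the look of germ cells were picked at random from the digested testes. The question taken up was how PND8 germ cells differed from those of PND7 and PND10 that passed the same limits, in gene expression, cell-cycle phase and embryonic globin transcripts.

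In the first wave of spermatogenesis, spermatogonia of the newborn testis either keep the features of stem cells or enter differentiation. Stem spermatogonia respond to GDNF, a Sertoli cell ligand, through the receptor pair GFRA1 and RET, while differentiating spermatogonia depend on the receptor tyrosine kinase KIT and on retinoic acid, which induces *Stra8*. Spermatocytes enter meiosis after several rounds of these divisions, and spermatids with their condensed, protamine-packed nuclei appear only weeks later. Embryonic globins are made by the first red blood cells, which form in the yolk sac.

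The 2 PND8 mice gave 160 of 187 and 176 of 184 cells that passed the quality filter, or 85.6% (95% Wilson interval 79.8 to 89.9) and 95.7% (91.7 to 97.8). Such intervals cover counting error only. Of the 371 PND8 cells, 27 fell short on *Ddx4*, 9 were over the limit for *Sox9* and 17 over that for *Nr2f2*. The same limits kept 307 germ cells at PND7 (151 and 156) and 327 at PND10 (173 and 154). PND8 cells held a median of 261902 UMIs, from 10724 to 887707. The UMIs of a mouse's cells were summed into 1 pool for tests, with 41740626 to 56999740 UMIs in each of the 6 pools. In a pool, fewer cells of a kind and less RNA per cell cannot be told apart. Time-point and replicate came from the authors' table of cells. Each mouse was prepared as 2 libraries of 96 barcodes, and all 4 PND8 libraries used the same 96 barcodes, with no cell listed in more than 1 library. The PND7 libraries came from another numbered series of libraries than those of PND8 and PND10, so that age and library series cannot be told apart when PND8 is compared with PND7.

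Libraries of the same PND8 mouse stood apart in a few sets of genes, and these bear on most of what follows. All 160 cells of replicate 1 held embryonic globin UMIs, at a pooled 258.8 CPM, against 0.359 CPM in replicate 2. Transcripts of late spermatocytes and spermatids were summed at 56.9 CPM in library 1 of replicate 1 and at 337, 362 and 638 CPM in the other 3 PND8 libraries. Results that rest on these libraries are given with and without them.

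*Ddx4* (chromosome 13, 112598333 to 112652475, mm10) was used to choose the cells, and its levels are a description. Its median over PND8 cells was 413 CPM, from 162 to 833, the lowest cell inside the limit being at 162.4 and the highest below it at 148.2 CPM. The highest *Sox9* inside the limit was 92.9 CPM and the lowest outside 100.2 CPM, and for *Nr2f2* they were 99.6 and 121.02 CPM. The other markers of these cells, which took no part in the choice, were high. *Stra8* (chromosome 6, 34920163 to 34939344), induced by retinoic acid before meiosis, had a median of 465 CPM with a range of 26.4 to 2492, and *Dmrt1* (chromosome 19, 25505618 to 25604329), a transcription factor of spermatogonia and Sertoli cells, a median of 359 CPM with a range of 21.8 to 1040.

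Most genes of stem spermatogonia measured lower at PND8 than at PND7 and lower again at PND10, although the test told only 1 of them from the spread between mice. Each of 19677 genes was tested by quasi-likelihood in edgeR, at an adjusted p of 0.05, and 0.64% of all genes passed as lower and 0.696% as higher at PND8 than at PND7. Of 18 stem cell genes, 1 fell and none rose. The fold changes of 16 were below 0 with a median of -0.53 on the log2 scale, against 0.02 over all genes tested. Both PND8 pools were under both PND7 pools for 12 of the 18, as they were for 21.3% of all genes.

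The gene that fell was *Hhex*, a homeobox transcription factor. It measured 69.2 and 56.4 CPM in the PND7 pools, 35.3 and 34.9 at PND8 and 30.8 and 30.4 at PND10, with replicate 1 first here and below. The 2 PND8 pools lay close together, under both PND7 pools and over both PND10 pools. The log2 fold change from PND7 was -0.86 ± 0.15 (SE, edgeR adjusted p = 0.0247), and the call was lost without library 2 of PND8 replicate 1 (adjusted p = 0.0802) and without library 2 of replicate 2.

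*Gfra1* (chromosome 19, 58235604 to 58455909), the GDNF co-receptor, measured 14.8 and 9.42 CPM at PND7, 11.5 and 8.78 at PND8 and 5.15 and 1.32 at PND10. The PND8 pools overlapped those of PND7, and both lay over the PND10 pools, though this step did not pass the test (log2 fold change -1.65, adjusted p = 0.304). *Ret*, the partner of *Gfra1* in the receptor, was at 50.6 and 36.9, then 33.2 and 23.2, then 17.5 and 13.2 CPM. The GDNF-responsive transcription factor *Etv5* was at 37.5 and 33.6, then 26.5 and 19.7, then 14.2 and 7.05 CPM. For both, the pools of the 3 ages did not overlap and no step passed the test. *Id4*, an inhibitor of basic helix-loop-helix factors that marks stem spermatogonia, was at 33.5 and 25.3 CPM at PND7, 20.7 and 8.37 at PND8 and 10.0 and 8.68 at PND10. *Zbtb16*, a zinc finger repressor needed to maintain the stem cells, was at 95.3 and 98.5, then 78.1 and 88.6, then 78.7 and 53.2 CPM. For *Id4* and *Zbtb16* the PND8 pools lay under those of PND7 and overlapped those of PND10. Between PND8 and PND10 none of the 18 genes passed, a step in which 0.0813% of all genes did. Of the 18, 17 had fold changes below 0, and the median was -0.59 against -0.01 over all genes.

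None of 12 progenitor genes passed in either step, in which 1.34 and 0.0813% of all genes did. The list medians were -0.07 from PND7 to PND8 and -0.18 from PND8 to PND10, against 0.02 and -0.01 over all genes. *Nanos3*, an RNA-binding protein of undifferentiated germ cells, measured 163 and 145.4 CPM at PND7, 115.4 and 78.05 at PND8, and 50.7 and 50.4 at PND10. The pools of the 3 ages did not overlap, and both steps missed the threshold (adjusted p = 0.081 and 0.099). *Utf1* (chromosome 7, 139943789 to 139945112), a chromatin protein of pluripotent cells and early spermatogonia, stood at 67.9 and 58.8 CPM at PND7 and 69.6 and 57.6 at PND8. It measured 34.1 and 30.9 CPM at PND10, under both PND8 pools (adjusted p = 0.057).

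Among 14 genes of differentiating spermatogonia, 2 rose from PND7 to PND8, as did 0.696% of all genes, and none fell. The median of the 14 was 0.31, against 0.02 over all genes. Both PND8 pools were over both PND7 pools for 9 of the 14, as they were for 28.3% of all genes. *Esx1*, an X-linked homeobox gene, measured 30.6 and 18.2 CPM at PND7, 79.7 and 64.7 at PND8 and 112.8 and 136.7 at PND10. All 3 ages stood apart, and the rise to PND8 was 1.54 ± 0.22 on the log2 scale (adjusted p = 0.0108), which held when any 1 of the 4 PND8 libraries was left out. *Prss50*, a serine protease gene of the testis, measured 16.6 and 8.38, then 63.7 and 43.1, then 86.3 and 188 CPM. Its rise of 2.08 ± 0.37 (adjusted p = 0.0275) held in 2 of the 4 fits without a library, and was lost without library 2 of replicate 1 (adjusted p = 0.0827) or of replicate 2 (0.0834).

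The markers best known for this step did not pass. *Kit* (chromosome 5, 75574916 to 75656722) was at 63.3 and 67.1 CPM at PND7, 81.3 and 103.5 at PND8 and 104.4 and 102.3 at PND10 (log2 fold change from PND7 to PND8 0.47, adjusted p = 0.106). *Stra8* was at 348 and 416, then 486 and 479, then 498 and 538 CPM (0.31, adjusted p = 0.205). The PND8 pools of both genes were over both PND7 pools without passing the test. *Stra8* was much alike in the 4 PND8 libraries, at 534, 441, 456 and 505 CPM. The PND7 libraries held 279 to 557 CPM of it, and library 2 of PND7 replicate 2 was over all 4 of PND8. For *Kit* that PND7 library held 94.9 CPM, over the 89.5 and 73.5 of PND8 replicate 1, so libraries of these ages overlapped. *Dmrt1* was at 327 and 308, then 375 and 347, then 420 and 314 CPM, with PND8 inside the range of PND10 (0.16, adjusted p = 0.675). *Rhox13*, an X-linked homeobox gene that follows *Stra8* in retinoic acid response, was at 115.2 and 113.7, then 149 and 167, then 207 and 228 CPM, with no overlap between ages and adjusted p of 0.059 and 0.162 for the steps.

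**Figure D1:**
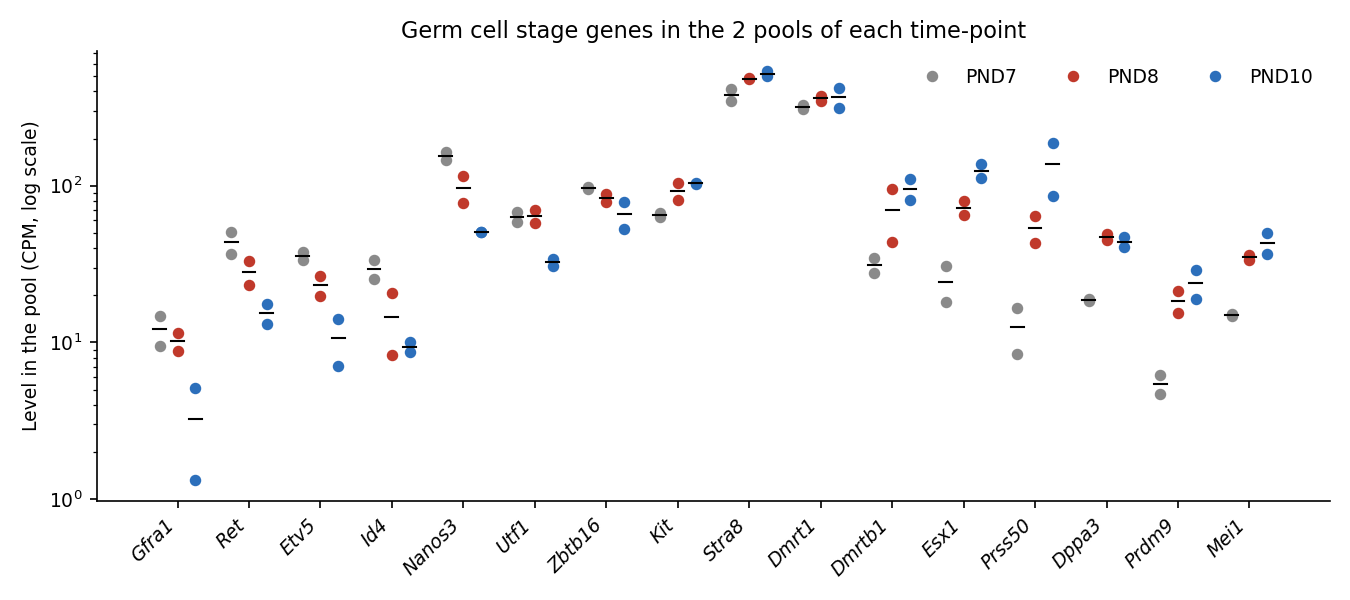
Level of 16 stage genes in the 6 pools of germ cells, in CPM on a log axis, with points for the pools of the 2 mice at PND7, PND8 and PND10 and bars for the mean of the 2 pools. *Esx1* and *Prss50* were higher at PND8 than at PND7, and *Stra8* and *Dmrt1* did not pass the test.

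Of 30 meiotic prophase genes tested, 2 rose from PND7 to PND8, as did 0.696% of all genes, and none fell. The fold changes of 22 were above 0 and the median was 0.23, against 0.02 over all genes. *Mei1*, needed for meiotic double-strand breaks, measured 15.1 and 14.7 CPM at PND7, 33.7 and 36.2 at PND8 and 36.5 and 50.2 at PND10 (1.20 ± 0.18, adjusted p = 0.0139), and held without any 1 library. *Prdm9*, the histone methyltransferase that places recombination hotspots, measured 6.19 and 4.68, then 21.3 and 15.4, then 18.9 and 28.9 CPM (1.73 ± 0.29, adjusted p = 0.0203), and was lost without library 2 of replicate 1 (adjusted p = 0.145) or of replicate 2 (0.0809). In both genes the PND8 pools were well over PND7 and close to, or overlapping, those of PND10. *Msh4*, a meiotic crossover gene, measured 4.31 and 4.33 CPM at PND7 and 11.7 and 9.61 at PND8 and missed the threshold (adjusted p = 0.073). None of the 30 passed between PND8 and PND10, a step in which 0.0813% of all genes did.

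Of 19 genes of retinoic acid response and metabolism, 1 rose and 1 fell from PND7, as did 0.696 and 0.64% of all genes. The list median was 0.08, against 0.02 over all genes. The enzyme gene *Aldh1a2*, which makes retinoic acid, measured 29.9 and 32.1 CPM at PND7, 59.6 and 51.6 at PND8 and 46.8 and 53.5 at PND10 (0.82, adjusted p = 0.0307), and lost the call without library 2 of replicate 1 (0.0668) or of replicate 2 (0.0615). *Aldh1a1*, of the same family, went the other way, at 49.4 and 56.4, then 27.3 and 13.7, then 31.8 and 30.3 CPM (-1.39, adjusted p = 0.0459), and lost the call without library 1 of replicate 1 (0.121) or library 2 of replicate 2 (0.199). *Aldh1a1* was one of the genes over 5 times higher in cells that held *Sox9* or *Nr2f2*, a group described further on. The receptor gene *Rxrg* measured 7.60 and 5.70 CPM at PND7 and 1.32 and 1.63 at PND8 (adjusted p = 0.069).

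Of 17 fetal germ cell and pluripotency genes, only *Dppa3* rose from PND7 to PND8, where 0.696% of all genes rose, and none fell. *Dppa3* (chromosome 6, 122626410 to 122630272), known as Stella and a protector of DNA methylation in the egg, measured 18.8 and 18.3 CPM at PND7, 45.3 and 48.9 at PND8 and 47.3 and 40.4 at PND10. The replicates of each age were close, the PND8 and PND10 pools overlapped, and the rise of 1.32 ± 0.16 from PND7 (adjusted p = 0.00609) held without any 1 PND8 library. The mice carry a *Stella-ECFP* transgene, and whether its transcripts were counted with *Dppa3* was not tested. *Pou5f1*, the pluripotency factor OCT4, measured 42.9 and 27.9, then 19.1 and 13.95, then 10.1 and 9.28 CPM, without overlap and without passing (-1.12, adjusted p = 0.068).

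None of 17 genes of the piRNA pathway and germ granule, which silence transposons, passed in either step. In these steps 1.34 and 0.0813% of all genes passed. From PND8 to PND10, 15 of the 17 had fold changes below 0 with a median of -0.24, against -0.01 over all genes. *Piwil4*, the nuclear Argonaute of prospermatogonia, was at 37.3 and 29.99 CPM at PND7, 38.4 and 38.6 at PND8 and 25.4 and 18.2 at PND10 (adjusted p = 0.212 for the latter step).

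Single PND8 cells were compared after each was thinned to 50000 UMIs, which left 153 and 170 cells. *Stra8* had a thinned median of 460 CPM in replicate 1 and 440 in replicate 2, and 1 and 2 cells had no *Stra8* UMI. *Gfra1* had none in 79.1% (72.0 to 84.8) and 82.9% (76.6 to 87.9) of cells. *Kit* had none in 22.2% (16.4 to 29.4) and 15.9% (11.2 to 22.1) of PND8 cells, compared with 31.9 and 33.8% at PND7 and 9.58 and 18.1% at PND10. Nearly every PND8 cell therefore held *Stra8* transcripts, most held *Kit*, and about 1 in 5 held *Gfra1* at this depth.

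Stem and differentiation genes ran opposite across the PND8 cells of each mouse, as a description over cells that share their library. The Spearman correlation of *Stra8* was 0.39 and 0.35 with *Kit* and 0.39 and 0.42 with the cyclin gene *Ccnd2*, in replicates 1 and 2. It was -0.42 and -0.38 with *Id4*, -0.39 and -0.38 with *Ret*, and -0.40 and -0.30 with *Zbtb16*. *Gfra1* ran with *Etv5* (0.44 and 0.55) and against *Kit* (-0.26 and -0.26). *Stra8* and *Dmrt1* were hardly related (-0.08 and -0.04).

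Most PND8 germ cells were scored as S or G2/M. Phases were called from the scores of 43 G1/S and 53 G2/M genes in 323 PND8 cells, with 13 too shallow to thin to 50000 UMIs. A cell with both scores below 0 was called G1 and any other by its higher score. Replicate 1 had 17.6% of cells in G1 (12.4 to 24.5), 30.1% in S (23.4 to 37.7) and 52.3% in G2/M. Replicate 2 had 11.8% (7.75 to 17.5), 34.7% (27.96 to 42.1) and 53.5%. Over the 2 mice, G1 averaged 14.7 ± 4.16%, S 32.4 ± 3.28% and G2/M 52.9 ± 0.878% (SD). These are calls from relative scores, with 24 PND8 cells within 0.05 of a border between phases. *Mki67*, a proliferation marker, had no UMI in 19 of 153 and 21 of 170 thinned cells.

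The share in S was 23.7 ± 0.797% at PND7 and 43.1 ± 2.58% at PND10, so that PND8 lay between, 8.64 percentage points over PND7 and 10.8 under PND10. The pools did not overlap in either step. PND7 cells were also marked 2N and came from another library series, which cannot be told apart from age in the PND7 shares. The share in G1 was 17.4 ± 5.86% at PND7, overlapping PND8, and 6.69 ± 0.986% at PND10, under both PND8 pools. The share in G2/M was 58.9 ± 6.65% at PND7 and 50.2 ± 3.57% at PND10. With 2 mice against 2 the exact two-sided permutation test cannot give a p under 0.333 and no difference could pass. It gave 0.333 for both steps of S, for G1 from PND8 to PND10 and for G2/M from PND7 to PND8, and 0.667 for the remaining 2 of the 6 differences.

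The 4 PND8 libraries differed in phase within a mouse. G1 made up 9.30 and 28.4% of cells in the 2 libraries of replicate 1 and 11.5 and 12.05% in those of replicate 2. S made up 30.2, 29.9, 28.7 and 40.96%, and G2/M 60.5, 41.8, 59.8 and 46.99%. With the control genes chosen by the scheme of another program, no PND8 cell was in G1 and 81.7% were in G2/M, so the share in G1 rests on how the scores were centred.

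G1 cells were rare among PND8 cells rich in *Stra8*. Of the cells over their mouse's median of *Stra8*, 2 of 74 and 2 of 84 were in G1, compared with 25 of 79 (31.6%) and 18 of 86 (20.9%) of the others. The shares in S were 40.5 and 38.1% of *Stra8*-rich cells and 20.3 and 31.4% of the others, and those in G2/M 56.8 and 59.5% against 48.1 and 47.7%. The order was the same in both mice for all 3 phases. The difference was not tested over mice.

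**Figure D2:**
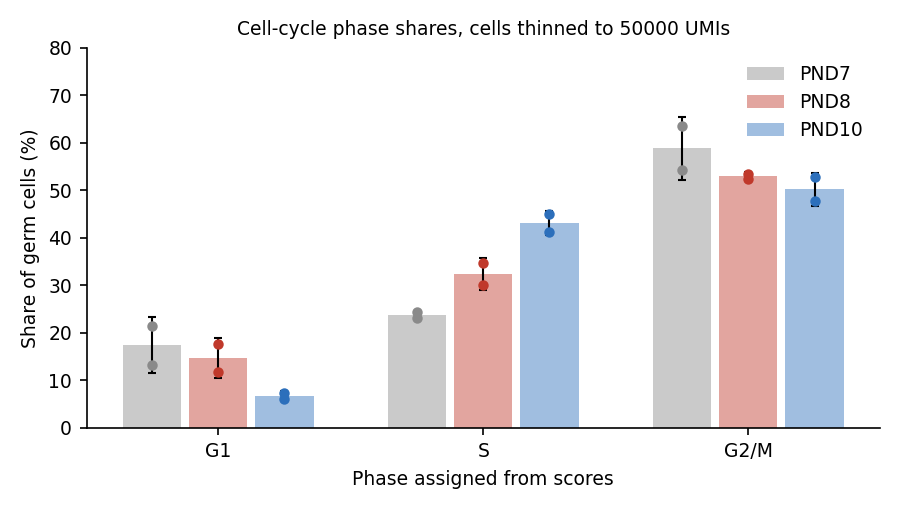
Share of germ cells called G1, S and G2/M in percent at PND7, PND8 and PND10, with bars for the mean of 2 mice, error bars for the SD and points for the mice. The share in S was 32.4% at PND8, between 23.7% at PND7 and 43.1% at PND10. PND7 also differed from the other ages in the 2N mark and the library series.

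The genes behind these scores moved little in the pools. None of 43 G1/S genes passed from PND7 to PND8 (median 0.01) or from PND8 to PND10 (0.08), and none of 53 G2/M genes (-0.08 and -0.01). None of 17 cyclins and inhibitors of cyclin-dependent kinases passed. In these steps 1.34 and 0.0813% of all genes passed. *Ccne2* (chromosome 4, 11191351 to 11204779), the cyclin of entry into S phase, measured 35.6 and 30.9 CPM at PND7, 39.5 and 43.8 at PND8 and 80.4 and 75.1 at PND10. The PND10 pools were well over the PND8 pools and just missed the threshold (0.89, adjusted p = 0.055). *Ccnd3*, a D-type cyclin, measured 51.2 and 56.3 CPM at PND7 and 33.5 and 38.4 at PND8 (adjusted p = 0.078).

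Over all genes, 263 differed between PND8 and PND7, or 1.34% of those tested. From PND8 to PND10, 15 rose and 1 fell, or 0.0762 and 0.00508% (0.0813% together). Against the mean of PND7 and PND10, PND8 had 79 genes higher and 41 lower, or 0.401 and 0.208% (0.61% together). Both PND8 pools were over the other 4 for 8.25% of genes and under them for 6.08%. These 3 comparisons share the PND8 pools and are not independent of each other. Without library 2 of PND8 replicate 1 they gave 94 genes (16 higher, 78 lower) for PND8 against PND7 and 25 genes, all lower, for PND8 against the mean. Without library 2 of replicate 2 there were 55 higher and 57 lower than at PND7, 0 from PND8 to PND10 (2029 at an unadjusted p under 0.05), and 31 (20 higher, 11 lower) against the mean.

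Most genes that set PND8 apart from both neighbours were far higher in other cells of the series. Among the 79 higher genes, 77 (97.5%) were over 5 times higher in an adult testis library of 83 cells than in the PND8 pools, as were 17.6% of all genes tested. Among the 41 lower genes, 22 (53.7%) were over 5 times higher in the cells with *Sox9* or *Nr2f2* at 100 CPM or more than in the germ cells, as were 4.54% of all genes. Only 20 were of neither kind. Against PND7 alone, the adult library was over 5 times higher for 95 of the higher genes (69.3%) and the *Sox9* or *Nr2f2* cells for 45 of the lower genes (35.7%), leaving 42 higher and 77 lower genes of neither kind. *Esx1*, *Prss50*, *Mei1*, *Prdm9*, *Aldh1a2*, *Dppa3* and *Hhex*, described above, were among those of neither kind. The part of other cells or of carried transcripts in these differences was not tested.

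**Figure D3:**
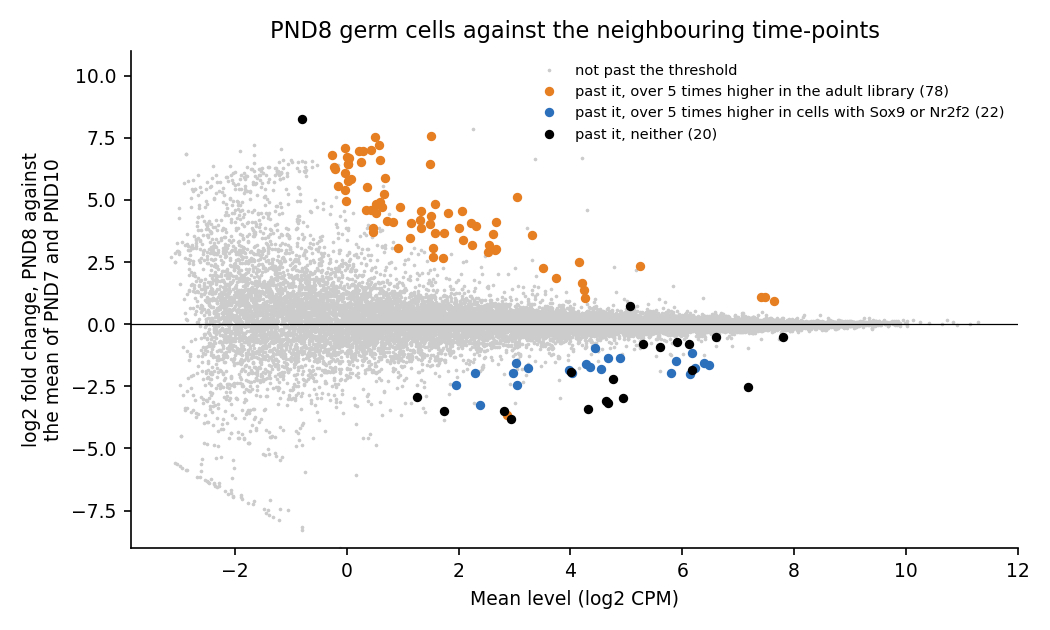
Log2 fold change of PND8 germ cells against the mean of PND7 and PND10, plotted against mean log2 CPM, with each gene tested as a point. Of the 120 that passed, 78 were over 5 times higher in the adult library (orange), 22 in cells with Sox9 or Nr2f2 (blue) and 20 in neither (black).

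Genes of late spermatocytes and spermatids, stages that come weeks after PND8, were counted in most PND8 cells. A list of 19 such genes was drawn up after their values were seen, and is given as a description. It summed to 74.3 and 73.8 CPM at PND7, 201 and 494 at PND8, and 113.9 and 161 at PND10. The adult library held 6175 CPM. Of the 6 embryo libraries analysed here, 1 of E6.5 held 448 CPM and both of E7.5 held 207 and 611, each over the lower PND8 pool, while another of E6.5, 1 of E8.5 and 1 of E10.5 held 7.92 to 36.2 CPM. Both PND8 pools were over those of the other ages, but library 1 of replicate 1, at 56.9 CPM, was under every PND7 library (60.8 to 87.1). PND8 cells outside the limits held 32.5, 432, 382 and 1048 CPM in the same 4 libraries, with the same library lowest and the same library highest as among the germ cells.

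*Ldhc* (chromosome 7, 46861203 to 46878142), the lactate dehydrogenase of spermatocytes and sperm, measured 7.001 and 11.8 CPM at PND7, 52.7 and 106.3 at PND8 and 22.8 and 28.2 at PND10. It was higher at PND8 than at PND7 by 3.04 ± 0.34 (adjusted p = 0.00393) and than the mean of the neighbours by 2.35 (adjusted p = 0.00557). In the PND8 libraries it stood at 11.6, 91.5, 93.8 and 119.9 CPM, the first of which lay within the PND7 libraries (4.98 to 18.9), and without library 2 of replicate 1 the call against PND7 was lost (adjusted p = 0.187). *Crisp2*, a secreted protein of the sperm acrosome, measured 0.787 and 0.476, then 13.3 and 33.4, then 3.24 and 8.54 CPM. The protamine gene *Prm2*, which packs sperm DNA, had UMIs in 2 of 92, 51 of 68, 71 of 89 and 86 of 87 cells of the 4 PND8 libraries, and its pooled 3.86 and 27.5 CPM against 1.26 and 0.303 at PND7 did not pass (adjusted p = 0.068).

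The number of these genes that passed turned on single libraries. With all libraries, 7 rose from PND7 (*Smcp*, *Crisp2*, *Ldhc*, *Cypt4*, *Gk2*, *Adam3* and *Meig1*), as did 0.696% of all genes. Against the mean of PND7 and PND10, 8 were higher, as were 0.401% of all genes. The medians over the list were 3.83 and 3.11 on the log2 scale, against 0.02 and 0.03 over all genes. Because the list was drawn up after its values were seen, these counts and medians describe it and test nothing. Without library 2 of replicate 1 none passed in either comparison, and without library 1 of replicate 1, the library low in these genes, 12 passed in each. *Cypt4* was at 0 in both PND7 pools, and its mean of 7.79 CPM at PND8 was at least 245-fold higher than the 0.0318 CPM that 3 UMIs over both PND7 pools would give. Within each library the UMIs of the list followed the depth of a cell (Spearman correlations 0.61 to 0.78) while its CPM did not (-0.16 to 0.23).

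Summed Sertoli cell genes were lower in both PND8 pools than in those of either neighbouring age. Of 14 markers other than *Sox9*, 7 fell from PND7 to PND8, as did 0.64% of all genes, and none rose. The list median was -1.91, against 0.02 over all genes. Those that fell were *Amhr2*, *Clu*, *Cldn11*, *Defb19*, *Dhh*, *Inhbb* and *Cst9*. *Amhr2*, *Clu* and *Defb19* rose again from PND8 to PND10, as did 0.0762% of all genes. In that step the whole list had a median of 1.24, against -0.01 over all genes. Against the mean of PND7 and PND10, 6 markers were lower, as were 0.208% of all genes. The 14 genes summed to 737 and 757 CPM at PND7, 416 and 220 at PND8 and 588 and 615 at PND10. Libraries of PND8 held 368, 462, 155 and 290 CPM, those of PND7 396 to 1106 and those of PND10 465 to 817, with overlap between libraries. *Fshr*, the receptor for follicle-stimulating hormone on Sertoli cells, was at 0 in 1 library of each PND8 mouse, and also in 1 library of PND7 and 1 of PND10. Cells with *Sox9* at 100 CPM or more, which the limits left out, numbered 31 and 25 among the filtered cells of the PND7 mice, 6 and 3 at PND8 and 9 and 15 at PND10, moving the same way as the sum of these genes, and their part in it was not tested. The count of 7 was 5 to 7 when 1 PND8 library was left out, and the 3 that rose to PND10 were 0 to 4.

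*Defb19* (chromosome 2, 152576086 to 152580312), a beta-defensin gene of Sertoli cells, gave the clearest pattern in the pools. It measured 84.9 and 94.2 CPM at PND7, 22.6 and 23.5 at PND8 and 83.4 and 112.2 at PND10. The pools of both PND8 mice were alike and far under the other 4 pools. The libraries within each mouse differed, at 12.5 and 32.1 CPM in replicate 1 and 7.05 and 41.4 CPM in replicate 2. Library 2 of PND7 replicate 2 held 25.98 CPM of *Defb19*, under library 2 of both PND8 mice, so libraries of these ages overlapped. The log2 fold changes were -1.99 ± 0.15 from PND7 (adjusted p = 0.000984) and 2.06 ± 0.15 to PND10 (adjusted p = 0.00126). The fall held in all 4 fits without a PND8 library and the rise in 2, the latter being at 0.112 without library 2 of replicate 2. *Clu*, which encodes the secreted chaperone clusterin, measured 131.1 and 132.997, then 43.5 and 30.5, then 90.7 and 107.2 CPM (-1.86 from PND7, adjusted p = 0.00201). *Inha*, the inhibin subunit that Sertoli cells secrete and a gene outside the list, measured 97.7 and 107.2, then 21.6 and 13.6, then 42.3 and 47.97 CPM (-2.57, adjusted p = 0.00136). Libraries overlapped for these 2 genes as well. Library 2 of PND7 replicate 2 held 44.8 CPM of *Clu*, against 60.5 and 46.3 in library 2 of the PND8 mice. For *Inha* it held 20.7 CPM, against 33.7 and 22.7. *Cst12* (adjusted p = 0.00234), *Rhox8* (0.00976), *Gstm2* (0.0288) and *Gstm6* (0.0213) also fell from PND7 by 1.62 to 1.93 on the log2 scale, and each lost the call without at least 1 PND8 library.

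Few markers of other somatic cells passed between ages. Interstitial and peritubular myoid markers summed to 157 and 59.6 CPM at PND8, 135.1 and 205 at PND7, and 186 and 217 at PND10, and none of 11 tested passed. Endothelial markers were at 95.4 and 119.4 CPM at PND8, of which *Egfl7* alone gave 84.5 and 112.9 CPM. That gene measured 92.5 and 87.4 CPM at PND7 and 84.9 and 111.6 at PND10. No other marker of that list was over 3.33 CPM in a PND8 pool. Macrophage markers were at 5.73 and 50.4 CPM at PND8, 76.9 and 9.44 at PND7 and 70.95 and 12.8 at PND10, with *Adgre1*, *C1qa*, *C1qb* and *Cd74* at 0 in replicate 1 of PND8. Replicate 2 of PND8 held 6.53 CPM in library 1 and 97.9 in library 2. Leydig cell markers were at 11.6 and 19.6 CPM at PND8, 61.95 and 17.6 at PND7 and 40.7 and 38.2 at PND10, and replicate 2 of PND8 held 5.53 CPM in library 1 and 34.7 in library 2. Among them *Hsd17b3*, an enzyme of testosterone synthesis, fell from 7.37 and 4.87 CPM at PND7 to 0.311 and 0.198, a call that held in 1 of 4 fits without a PND8 library.

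**Figure D4:**
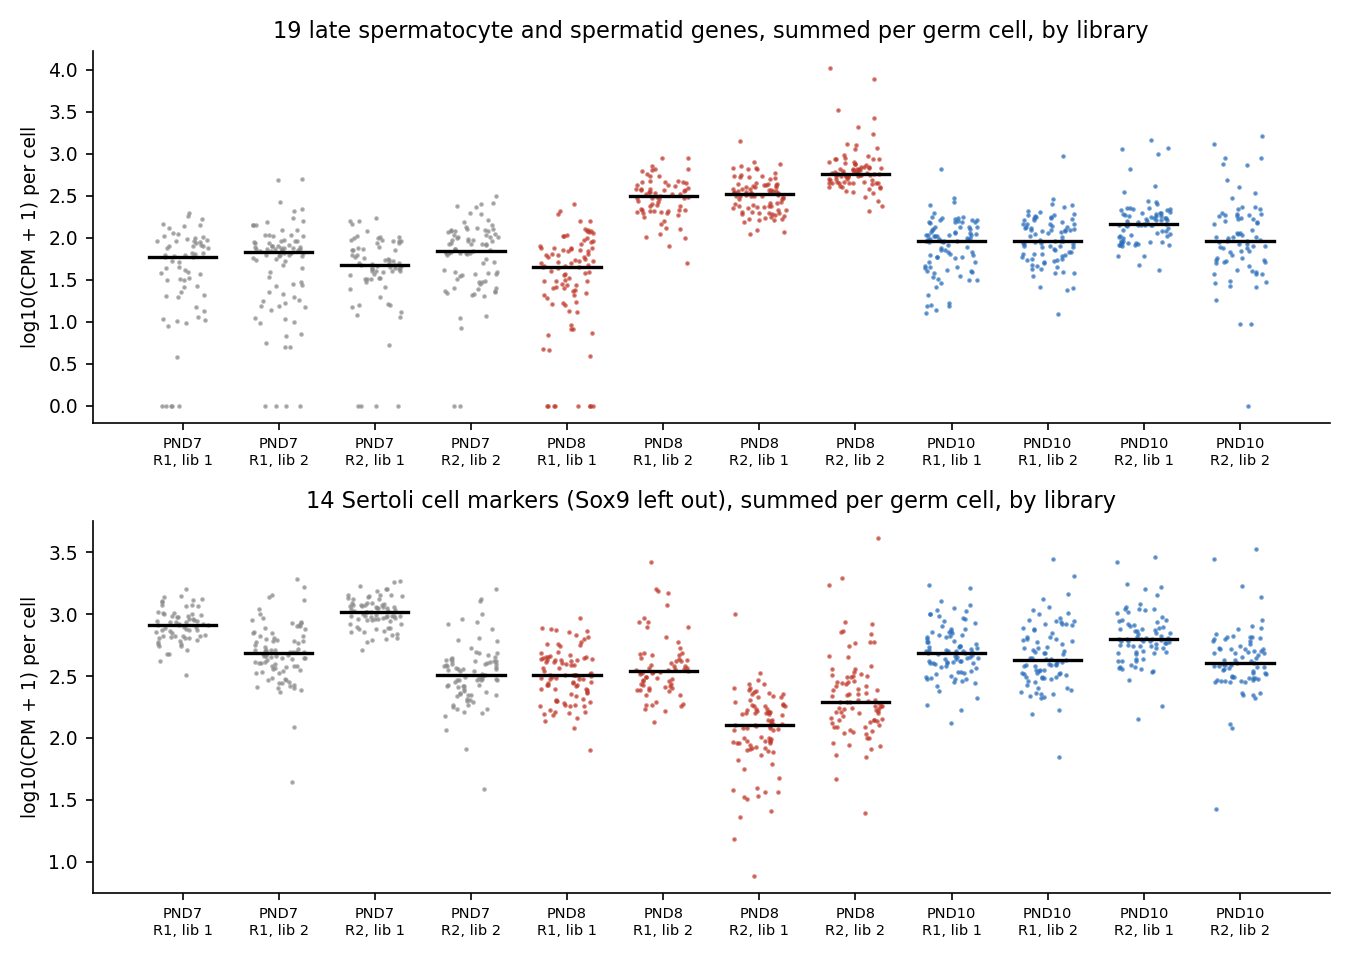
Summed level of 19 late spermatocyte and spermatid genes and of 14 Sertoli cell markers in each germ cell, as log10(CPM + 1), with a point for each cell, a column for each of 12 libraries and a black bar for the library median. Spermatid genes were low in library 1 of PND8 replicate 1 (pooled 56.9 CPM) and high in the other 3 PND8 libraries (337 to 638 CPM).

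Embryonic globin transcripts were found in every germ cell of PND8 replicate 1 and in almost none of replicate 2. *Hba-x* (chromosome 11, 32276400 to 32278116) encodes the embryonic zeta chain, and *Hbb-bh1* (chromosome 7, 103841637 to 103843164) and *Hbb-y* (chromosome 7, 103851749 to 103853216) the embryonic beta-like chains. Together they measured 371.7 CPM in library 1 and 152.4 in library 2 of replicate 1, and 0.587 and 0.112 CPM in the libraries of replicate 2. The cells of replicate 1 held a median of 327 CPM (98.4 to 5315) in library 1 and 86.99 (9.29 to 3556) in library 2, and none was at 0. In replicate 2, 170 of 176 cells were at 0.

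PND7 and PND10 stood far under PND8 replicate 1. PND7 pools held 13.4 and 11.2 CPM, with 0.213 and 1.07 in the first libraries and 21.9 and 21.7 in the second, and PND10 pools 1.28 and 1.298 CPM. The 95th percentile of PND7 and PND10 cells was 13.9 CPM. Only 2 cells of PND8 replicate 1 lay at or under it, against 175 of 176 of replicate 2. The mean of the PND8 pools, 129.6 ± 182.8 CPM (SD, n = 2), therefore describes neither mouse.

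The signal was in 1 mouse of 2, and none of the globin genes passed between ages. *Hba-x* measured 105.6 CPM in replicate 1 and 0.144 in replicate 2, *Hbb-bh1* 53.7 and 0, and *Hbb-y* 99.5 and 0.216. Adjusted p for PND8 against PND7 was 0.274 for *Hba-x*, 0.415 for *Hbb-bh1* and 0.306 for *Hbb-y*. UMIs of *Hbb-bh1* in 0 of 176 cells allow a share of cells with a UMI of up to 1.70%, which does not bound cells that express the gene below this depth, and 3 UMIs in that pool would be 0.0539 CPM. The adult chains followed the same mouse, at a summed 283.5 CPM in replicate 1 and 8.96 in replicate 2, against 34.6 to 86.5 at PND7 and 17.7 to 24.5 at PND10. Library 1 of replicate 1 held 437.8 CPM of them and library 2 held 138.1, the latter near the highest PND7 library (128.7). *Hba-a1* and *Hba-a2* are near-identical copies, as are *Hbb-bs* and *Hbb-bt*, so that the split of UMIs between copies is uncertain.

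The 3 embryonic chains kept nearly the same proportion in both libraries. *Hba-x*, *Hbb-bh1* and *Hbb-y* made up 40.5, 20.8 and 38.7% of the embryonic globin UMIs in library 1 and 41.6, 20.6 and 37.9% in library 2. In the cells of those libraries outside the limits they made up 42.5, 18.4 and 39.1% (3 cells) and 43.4, 19.9 and 36.8% (24 cells). Across the 92 and 68 germ cells, embryonic globin UMIs followed the depth of the cell (Spearman 0.79 and 0.64) and CPM did not (0.00 and 0.11).

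**Figure D5:**
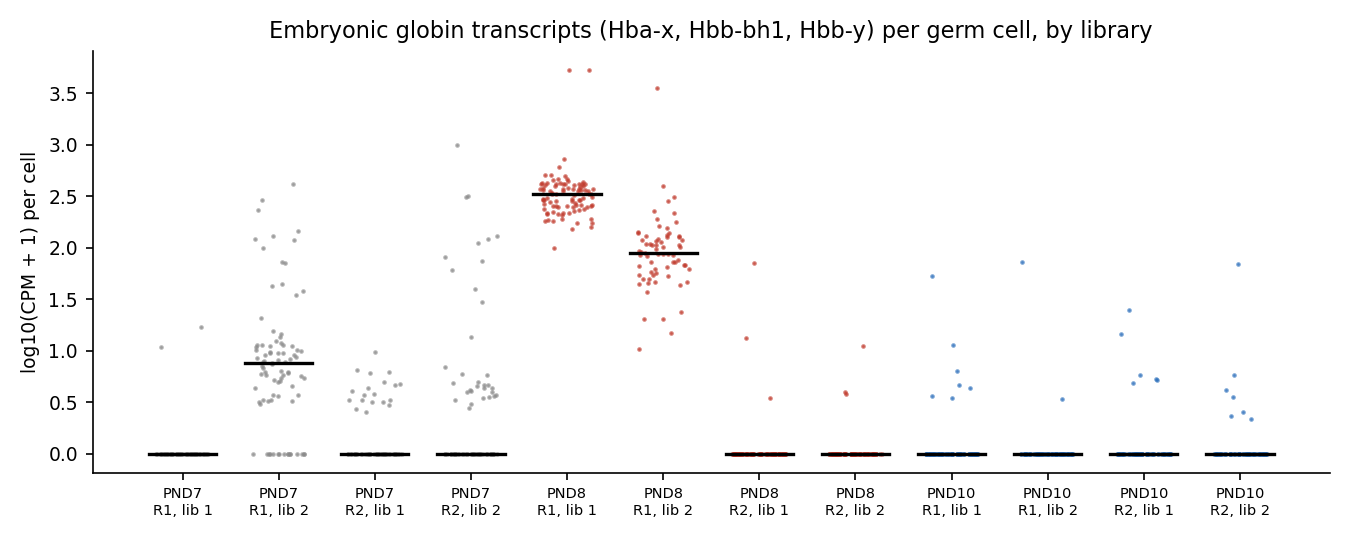
Summed level of *Hba-x*, *Hbb-bh1* and *Hbb-y* in each germ cell, as log10(CPM + 1), with a point for each cell, a column for each of the 12 libraries and a black bar for the median. Both libraries of PND8 replicate 1 stand over the other 10, with medians of 327 and 86.99 CPM, while 170 of 176 cells of replicate 2 are at 0.

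Other genes separated replicate 1 from every other pool. *Spink1*, a trypsin inhibitor gene of pancreas, gut and yolk sac, measured 161 CPM there (216 and 109.1 in its libraries) and at most 0.0621 in the other 5 pools. It had UMIs in 92 of 92 and 68 of 68 cells and in 0 of 176 cells of replicate 2, which allows a share of cells with a UMI of up to 1.70%. *Ttr*, the thyroid hormone carrier of liver and visceral endoderm, measured 27.6 against at most 0.217 CPM. *Apoa1*, an apolipoprotein, measured 38.6 against at most 5.25, and the carbonic anhydrase *Car4* 45.4 against at most 2.89 CPM. In all, 15 genes were over 4 times higher in replicate 1 than in each other pool, and 17 in replicate 2.

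Not all genes of the yolk sac or of red cells shared that pattern. Summed yolk sac and visceral endoderm genes were at 679 CPM in replicate 1 and 388 in replicate 2. The sums were 471 and 461 CPM at PND7 and 348 and 363 at PND10. Of 12 tested, 0 passed, while 8 had an unadjusted edgeR p under 0.05 for PND8 against PND7, some higher and some lower. *Spink1* is on this list but was not among the genes tested. Erythroid genes other than globins were at 97.5 and 83.9 CPM, within the 72.8 to 108.7 of the other pools. One of them, the carbonic anhydrase gene *Car2*, did share the pattern, at 8.19 CPM in replicate 1 against at most 0.575 in the other pools. Early mesoderm and trunk genes were at 51.1 and 49.3 CPM, within 37.6 to 53.7. The 6 embryo libraries named above (E6.5, E7.5, E8.5 and E10.5) and the adult library held at most 0.642 CPM of embryonic globin, and other embryo libraries were not analysed here. Where the transcripts in replicate 1 came from was not tested.

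Stress response genes, such as *Fos* and *Hspa1a*, summed to 371 CPM in replicate 1 and 184 in replicate 2, 391 and 357 at PND7 and 235 and 225 at PND10, and none of 11 passed. Of the 17 genes over 4 times higher in replicate 2 than in each other pool, *Acmsd*, an enzyme gene of tryptophan breakdown, measured 6.88 CPM against at most 0.145. Protamine and transition protein genes were among the 17. *Prm1* measured 39.9 CPM there against at most 8.60 in every other pool, *Prm2* 27.5 against 3.86 and *Tnp2* 26.9 against 4.72.

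Some of the 42 higher genes of neither kind that differed between PND7 and PND8 are described here. *Tbx1*, a T-box transcription factor, measured 21.6 and 13.1 CPM at PND7, 48.5 and 67.004 at PND8 and 83.3 and 89.6 at PND10, rising by 1.71 ± 0.22 (adjusted p = 0.00738). *Lhx8*, a LIM homeobox gene of germ cells, measured 19.9 and 19.01, then 44.03 and 67.1, then 43.8 and 57.6 CPM (1.48, adjusted p = 0.00996). Both were higher in each PND8 pool than in either PND7 pool, and *Lhx8* overlapped between PND8 and PND10. *Pcsk1n* (chromosome X, 7919822 to 7924410), which encodes an inhibitor of a prohormone convertase, measured 52.7 and 55.2, then 108.1 and 152, then 183 and 221 CPM (1.24, adjusted p = 0.00495). *Lamp1* (chromosome 8, 13159161 to 13175338), of the lysosome membrane, measured 75.9 and 80.9, then 153 and 163, then 161 and 177 CPM (0.98, adjusted p = 0.00312). *Tbx1*, *Lhx8*, *Pcsk1n* and *Lamp1* passed in all 4 fits that left out a PND8 library.

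Several genes were lower at both PND8 and PND10 than at PND7. *Hspbap1* (chromosome 16, 35770375 to 35828477), whose protein binds a small heat shock protein, measured 158 and 164 CPM at PND7, 68.4 and 69.6 at PND8 and 58.8 and 58.7 at PND10 (-1.25, adjusted p = 0.00136). All 4 PND7 libraries lay between 154 and 166 CPM and the other 8 between 56.5 and 74.6. *Bc1* (chromosome 7, 144914470 to 144914637), a short noncoding RNA made by RNA polymerase III, measured 183 and 182, then 54.5 and 62.4, then 48.9 and 34.7 CPM (-1.68, adjusted p = 0.00312). *Fam149b* measured 89.4 and 81.9, then 28.7 and 26.4, then 32.4 and 30.7 CPM (-1.66, adjusted p = 0.00136). In these 3 the step fell between the PND7 libraries and all others, where age and library series cannot be told apart.

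Few genes passed the test between PND8 and PND10, at 16 in the main fit, 0 with limma and 692 without a filter on low counts. With 2 mice at each age, this does not show that the ages were alike. Both PND10 pools were over both PND8 pools for 19% of all genes and under them for 20.3%. Of the 15 that rose, 7 were over 5 times higher in cells with *Sox9* or *Nr2f2*, among them *Defb19*, *Cst12* and *Wfdc10*, and the other 8 were unnamed predicted genes. *Tmsb4x*, an actin-binding thymosin, measured 93.4 and 85.9 CPM at PND7, 42.6 and 36.6 at PND8 and 90.2 and 85.6 at PND10 (1.13, adjusted p = 0.0203), and rose in 1 of the 4 fits without a PND8 library. The 1 gene that fell, *Arntl2*, a partner of the circadian factor CLOCK, was named for this reason after its values were seen, with 14.9 and 13.2 CPM at PND8 and 2.61 and 1.89 at PND10.

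Genes that set PND8 apart from both neighbours and were of neither kind numbered 2 higher and 18 lower. *Mobp*, a myelin protein gene, measured 28.9 and 24.1 CPM at PND7, 42.5 and 49.1 at PND8 and 27.3 and 28.5 at PND10 (0.75 ± 0.14, adjusted p = 0.0468), which held in 1 of 4 fits without a library (adjusted p = 0.226 without library 2 of replicate 1). *Pga5*, the other, was at 2.76 and 0.503 CPM at PND8 and at 0 in 3 of the other 4 pools. *Hk2*, the hexokinase of growing cells, was lower at PND8, with 66.2 and 69.6 CPM at PND7, 40.2 and 44.9 at PND8 and 75.1 and 64.6 at PND10 (-0.70, adjusted p = 0.0379), and also held in 1 of 4. *Git2*, a regulator of ARF GTPases, measured 310.3 and 306 CPM at PND7, 162 and 177 at PND8 and 197 and 176 at PND10, which overlapped.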

How the data were processed

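The deposited counts were UMI counts of 31053 genes in single cells, made by the authors with UMI-tools, STAR alignment to mm10 and featureCounts of Subread, after base calling with CASAVA 1.8 per the submitters' processing notes. Genes and UMIs per cell were deposited counts in the authors' table of cells, which also gave time-point and replicate, since the labels name libraries only. The per-cell sums of 1776 cells of 19 libraries equalled that table in all 1776. A further 11256 columns of cells were not used. Members and gene lists were chosen with earlier results of these data known. No doublet caller was run. Coordinates are those of a GENCODE annotation of mm10.

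UMIs were summed per mouse and time-point and tested with edgeR 4.0.16 (TMM, filterByExpr, quasi-likelihood, all 6 pools, Benjamini-Hochberg adjusted p under 0.05, 3 residual degrees of freedom) in R 4.3.3. *Ddx4*, *Sox9* and *Nr2f2* were not read from the fit. Median log2 fold changes over all genes were 0.02, -0.01 and 0.03. On simulated counts of 19072 genes, 2-fold changes were recovered in 72% (PND8 against PND7), 77% (PND10 against PND8) and 81% (PND8 against the mean), and 4-fold changes in 98, 98 and 99%. Changes were planted only in genes with a mean CPM of at least 10, so these shares do not cover lower genes. Differences between the libraries of a mouse were not simulated. Phases followed the Seurat scheme with 24 expression bins and 100 control genes per gene, after thinning to 50000 UMIs. Alternatives were DESeq2 1.42.0, limma 3.58.1, other filters and limits, and left-out mice and libraries. Apart from list members, the 10 genes of largest rise and fall per comparison could be named, among those past the threshold whose pools did not overlap and whose log2 CPM averaged 5 or more. Genes named beyond this rule (such as *Lamp1*, *Hspbap1*, *Git2*, *Car4*, *Pga5* and *Arntl2*) were chosen after their values were seen. Clone and predicted genes were counted without names.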

Additional observations from a re-analysis of the deposited data

Results flagged for a closer look

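Cells of PND8 replicate 1 that the germ cell limits left out also held embryonic globin transcripts. Their median sum of *Hba-x*, *Hbb-bh1* and *Hbb-y* was 5499 CPM in the 3 such cells of library 1 and 60.8 CPM in the 24 of library 2. The 8 such cells of replicate 2 had a median of 0. Of the cells outside the limits at PND7 and PND10, the medians of 7 of 8 libraries were 0 and the highest was 9.36 CPM, although summed over its 9 cells that library, of PND7 replicate 1, reached 258.8 CPM.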

How the results depend on the processing

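The number of genes past the threshold changed with the method and with the limits set for germ cells. For PND8 against PND7 (263 genes) it was 1407 with DESeq2, 1416 without a filter on low counts, 155 with *Sox9* and *Nr2f2* under 25 CPM, and 29 when cells weighed equally in limma. For PND10 against PND8 (16) it was 523 with DESeq2, 26 with DESeq2's size factors, 692 without a filter, 30 with a mean CPM of at least 10, 1 with only the pools compared, 3 and 7 with *Ddx4* limits of 300 and 50 CPM, 8 with *Sox9* and *Nr2f2* under 25 CPM, 10 without cells high in globin, 27 without globin genes, 30 after thinning, and 0 with limma (2394 at an unadjusted p under 0.05). For PND8 against the mean (120) it was 572 with DESeq2, 719 without a filter, 29 with a mean CPM of at least 10, and 0 with limma (2306 unadjusted).

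Leaving out 1 mouse gave 55 to 727, 20 to 168 and 64 to 254 genes in these comparisons, with the lone pool assumed to vary like the others. Chosen after the data were seen, leaving out libraries 1 and 2 of PND8 replicate 1 gave 249 and 94 genes against PND7, 6 and 24 from PND8 to PND10, and 162 and 25 against the mean. Without library 1 of replicate 2 there were 271 genes against PND7 and 4 from PND8 to PND10, and without library 2 there were 55 higher and 57 lower against PND7, 0 from PND8 to PND10 (2029 unadjusted) and 31 against the mean. Also chosen then, leaving out genes over 5 times higher in the adult library gave 164, 16 and 42, and leaving out the others that were over 5 times higher in cells outside the limits gave 218, 9 and 98.

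Same-numbered mice did not deviate together at every pair of ages (correlations of -0.00342, 0.15 and -0.00842 between the replicate differences of PND7 and PND8, PND8 and PND10, and PND7 and PND10), so the numbers do not pair the mice. With the replicate number as a block, 372 genes passed against PND7 and 34 from PND8 to PND10.

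Phase shares moved with the centring of scores. Under the scanpy control genes the PND8 means were 0% in G1, 18.3% in S and 81.7% in G2/M. G2/M was 51.4% without thinning, 49.3% after thinning to 20000 UMIs and 53.97% with a *Ddx4* limit of 300 CPM. The value of 1 mouse ranged from 11.8 to 17.6% for G1, 30.1 to 34.7% for S and 52.3 to 53.5% for G2/M, and from 0.359 to 258.8 CPM for embryonic globin. Of the results for single genes under alternatives, 1935 kept their direction and side of the threshold, 92 gained and 252 lost the call, and none reversed. Leaving out replicate 1 or 2 lost 21 and 18 calls for PND7, 4 and 13 for PND8, and 1 and 1 for PND10, and leaving out library 2 of PND8 replicate 1 or 2 lost 32 and 31. With 2 mice per age, 2-fold changes were recovered less often in simulations than 4-fold changes.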
